A study of Mus musculus with 84 samples.

Results

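The libraries described here are bulk RNA-seq libraries of mouse brain in which the gene Eno1b was either near 0 or high. They were chosen by the level of Eno1b itself (ENSMUSG00000059040, chromosome 18, 48045335 to 48048378, mm10), in CPM (the count of a gene divided by the total count of its library and multiplied by 1e6). Of 84 libraries, 34 had Eno1b under 1 CPM and are called Eno1b-low, and 31 had Eno1b above 35 CPM and are called Eno1b-high. The other 19 libraries are called intermediate and were left out of the main comparison, so 65 of 84 libraries entered it. Each library came from the hand-dissected ventrolateral striatum of 1 naive, untreated adult mouse of the SOT and NOT strains, given as S4 in the series design, and the labels place 44 animals in a High Drinker and 40 in a Low Drinker group. The labels do not say which strain each group is, and they give no ages, litters or families. The p-values below assume independent animals.

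The classes were unequally spread over both groups. The Eno1b-low class held 31 High Drinker libraries (15 females, 16 males) and 3 Low Drinker libraries (2 females, 1 male). The Eno1b-high class held 5 High Drinker libraries (3 females, 2 males) and 26 Low Drinker libraries (14 females, 12 males). The intermediate class held 8 High Drinker libraries (3 females, 5 males) and 11 Low Drinker libraries (2 females, 9 males). Library totals ran from 22190363 to 41300401 counts. The number that ends each sample title runs in 3 sets, here called sheet sets, which the labels do not describe as batches. In the second sheet set all 11 Eno1b-low libraries were High Drinker and all 12 Eno1b-high libraries were Low Drinker, so class and group cannot be told apart there. All 5 High Drinker Eno1b-high libraries were in the first sheet set. By their correlation with the other libraries 5 libraries stood apart, High Drinker 17 (Eno1b-low), Low Drinker 8, 33 and 34 (Eno1b-high) and Low Drinker 32 (intermediate).

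Enolase is the glycolytic enzyme that turns 2-phosphoglycerate into phosphoenolpyruvate. Eno1 encodes the widely expressed alpha subunit, Eno2 the gamma subunit typical of neurons and Eno3 the beta subunit typical of muscle. Messenger RNAs of abundant genes such as Eno1 are sometimes reverse transcribed and inserted elsewhere in the genome as intronless retrocopies. A read from such a copy can be counted at the parent gene or at another copy wherever their sequences are the same.

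Eno1b is one of several loci that resemble Eno1. The transcript annotated for Eno1b held 77.1% of the 25-base words of Eno1 (ENSMUSG00000063524, chromosome 4, 150236721 to 150248879), and that of Gm4735 (ENSMUSG00000064193, a processed pseudogene on chromosome 2, 80837141 to 80838442) held 58.4%. The others, Gm16103, Gm33707 and Gm14984, held 6.0%, 4.1% and 2.8%. Over the coding sequence Eno1 and Eno1b differed at 8 of 1305 positions (99.39% identity), Eno1 and Gm4735 at 5 of 1302 (99.62%), and Eno1b and Gm4735 at 3 of 1302 (99.77%). Reads in this study were 100 bases long, and 68.4% of 100-base windows of the Eno1 coding sequence were identical in Eno1b. The share was 69.2% between Eno1 and Gm4735 and 82.9% between Eno1b and Gm4735.

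The stretches where the coding sequences of Eno1 and Gm4735 differ are shown. Within the coding sequence only reads that cover such positions can tell Eno1 and Gm4735 apart. Reads from outside the coding sequence are not part of this comparison. Not all of the 8 coding positions where Eno1 and Eno1b differ are shown. Capitals mark the differing bases, positions are counted from 1 at the start codon of Eno1, and the sequences come from build GRCm38 (the same assembly as mm10), plus strand. The substitutions from Eno1 to Gm4735 were T726C, T816G, A1056G, T1224C and C1233T, and at all 5 positions Eno1b has the base of Gm4735. The Eno1 stretches from 1036 and from 1204 cross an exon junction and are given as spliced.
Eno1 from coding position 706 (chr4:150246608-150246648): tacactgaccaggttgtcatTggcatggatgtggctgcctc
Gm4735 (chr2:80837846-80837886): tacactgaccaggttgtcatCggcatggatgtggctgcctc
Eno1 from coding position 796 (chr4:150246698-150246738): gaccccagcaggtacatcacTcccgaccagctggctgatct
Gm4735 (chr2:80837936-80837976): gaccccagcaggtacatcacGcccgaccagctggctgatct
Eno1 from coding position 1036 (spliced): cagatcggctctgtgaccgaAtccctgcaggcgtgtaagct
Gm4735 (chr2:80838176-80838216): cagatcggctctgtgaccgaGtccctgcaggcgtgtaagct
Eno1 from coding position 1204 (spliced): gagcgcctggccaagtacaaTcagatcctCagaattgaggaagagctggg
Gm4735 (chr2:80838344-80838393): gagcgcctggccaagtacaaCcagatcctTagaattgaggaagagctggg

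Eno1b fell into 3 separate ranges, which is what the choice of libraries used and is described without a test. In the Eno1b-low class it ran from 0 to 0.294 CPM with a median of 0.112, from counts of 0 to 9. A single library had a count of 0, which at its depth allows up to 0.0977 CPM (3 counts, counting error only), so the word absent holds for the class only as near 0. In the intermediate class it ran from 9.83 to 30.75 CPM with a median of 23.8, and 18 of the 19 libraries lay between 21.2 and 30.75. In the Eno1b-high class it ran from 37.8 to 70.5 CPM with a median of 49.7. The values next to the limits were 0.294 and 9.83 CPM at the lower limit and 30.75 and 37.8 CPM at the upper one. High and Low Drinker libraries of a class had similar medians, at 0.101 and 0.121 CPM in the Eno1b-low class, 23.6 and 24.99 CPM in the intermediate class and 49.7 and 50.1 CPM in the Eno1b-high class.

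**Figure D1:**
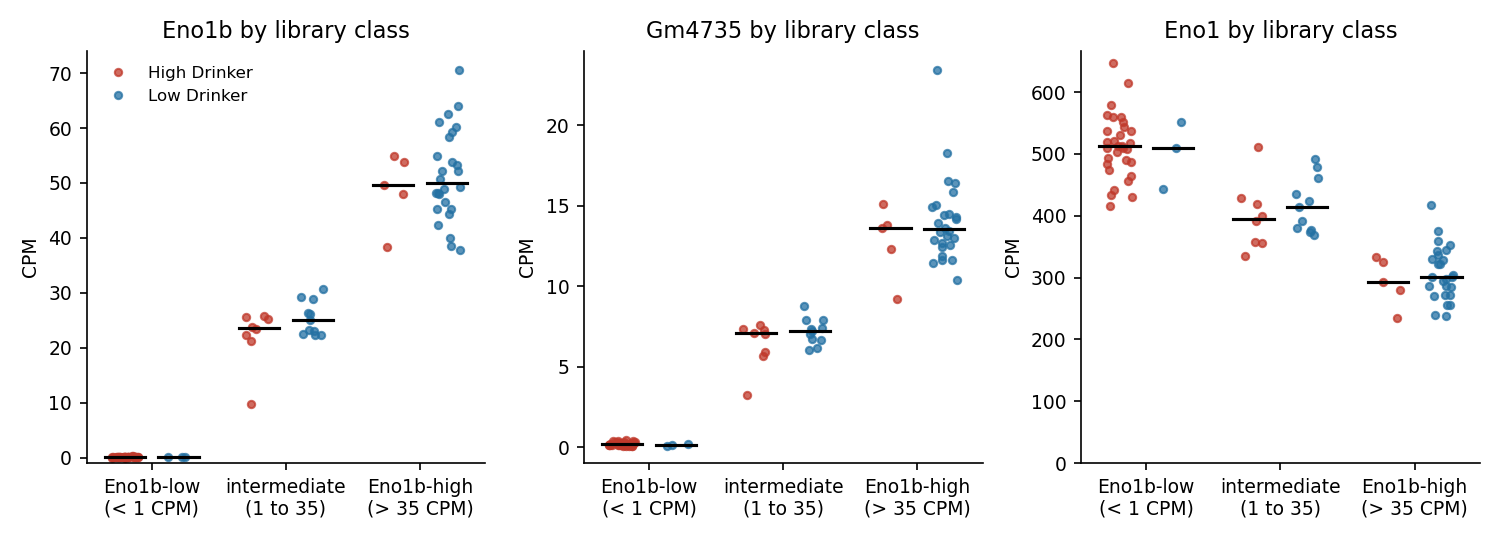
Levels of Eno1b, Gm4735 and Eno1 (CPM, linear axes) in each of the 84 libraries, by Eno1b class and group; points are libraries and bars are medians. Eno1b and Gm4735 rise over the 3 classes while Eno1 falls, with Eno1 at 415 to 646 CPM in the Eno1b-low class and 234 to 418 CPM in the Eno1b-high class.

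The pseudogene Gm4735 followed Eno1b, and Eno1 ran the other way. Because these loci share sequence with the gene that chose the libraries, their values are a description with no test. Gm4735 was at 0.0587 to 0.436 CPM (median 0.164) in the Eno1b-low class, 3.21 to 8.79 CPM (median 7.11) in the intermediate class and 9.19 to 23.45 CPM (median 13.6) in the Eno1b-high class. The 3 ranges did not overlap. Eno1 was at 513 ± 51.9 CPM in the 31 High Drinker and 502 ± 54.9 CPM in the 3 Low Drinker Eno1b-low libraries (SD), against 293 ± 39.7 CPM in the 5 High Drinker and 307 ± 43.4 CPM in the 26 Low Drinker Eno1b-high libraries. The 5 High Drinker Eno1b-high libraries (animals 9, 11, 18, 24 and 27) were at 279, 234, 333, 326 and 293 CPM, and the 3 Low Drinker Eno1b-low libraries (3, 9 and 20) at 443, 510 and 552 CPM. Intermediate libraries averaged 410 ± 48.5 CPM (SD, n = 19). Eno1 overlapped between the classes only from 415 to 418 CPM, and inside each group the Eno1b-low and Eno1b-high libraries did not overlap.

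Adding Eno1, Eno1b and Gm4735 together narrowed the difference without removing it. The summed mean was 513.5 CPM in Eno1b-low and 354.7 CPM in Eno1b-high High Drinker libraries, a ratio of 1.45, where Eno1 alone gave 1.75. In Low Drinker libraries the sum was 501.9 and 372.7 CPM, a ratio of 1.35, where Eno1 alone gave 1.63, and there the summed values of the classes overlapped. How reads with several possible origins were counted is not given in the sources used here, so the part of counting in these values was not tested.

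The share of that sum counted at Eno1 fell into narrow bands. It was 99.87 to 99.97% in Eno1b-low libraries, 81.6 to 83.4% in Eno1b-high libraries (median 82.55%, SD 0.459, n = 31) and 92.2 to 93.1% in 18 of the 19 intermediate libraries. The remaining intermediate library, High Drinker 7, was at 97.5%, and it was also the library with the lowest intermediate Eno1b. Within a band the share hardly changed while the sum itself ranged widely.

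**Figure D2:**
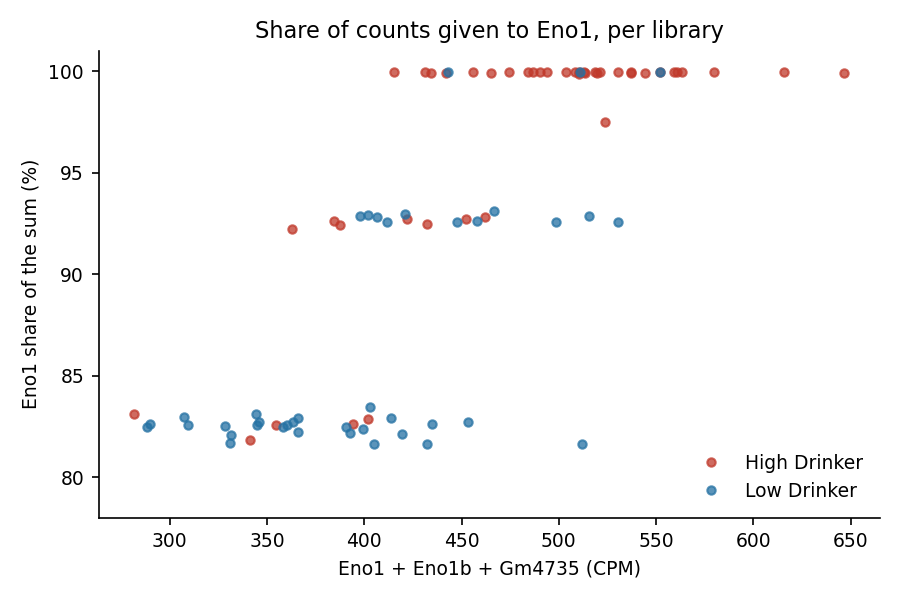
Percent of the summed counts of Eno1, Eno1b and Gm4735 that were counted at Eno1, against that sum (CPM), 1 point per library (84 libraries; the vertical axis does not start at 0). The shares lie in bands near 99.9%, 92.7% and 82.5%, with 1 High Drinker library at 97.5%.

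The other enolase genes did not pass the test between classes. Eno2 ran from 1019 to 1431 CPM in Eno1b-low, 1054 to 1462 CPM in intermediate and 940.3 to 1445 CPM in Eno1b-high libraries, a log2 difference of -0.02 ± 0.04 (SE). Eno3 and Eno4 had differences of 0.11 ± 0.16 and 0.03 ± 0.16, and all 3 had an adjusted p of 0.9998 (edgeR quasi-likelihood test with Benjamini-Hochberg adjustment). Log2 differences are given as Eno1b-low minus Eno1b-high. The glycolysis genes as a list had 0 of 34 tested members past the threshold, with a median log2 difference of 0.01 against -0.003 over all tested genes, and 1 member had an unadjusted p under 0.05.

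Across all genes the classes differed at few loci, and most of these lay at the far end of chromosome 4. The comparison took in both groups with sheet set, sex and group as terms in the model, and a gene is called where its adjusted p was under 0.05. Of 17934 tested genes 59 were called (0.329%), 32 higher (0.178%) and 27 lower (0.151%) in Eno1b-low libraries, and 821 (4.58%) had an unadjusted p under 0.05. The count was 67 without the 4 of these libraries that stood apart, 38 without High Drinker 11, 37 without Low Drinker 20, 5 in females, 16 in males and 178 with 5 surrogate variables in the model. The 6 loci resembling Eno1 were left out of testing. Of the 59 called genes 41 (69.5%) lie on chromosome 4, which holds 6.21% of the tested genes. Of these, 29 were higher and 12 lower in Eno1b-low libraries. Elsewhere 3 were higher and 15 lower. The median absolute log2 difference was 1.49 among the called genes and 0.06 over all tested genes. In bulk tissue, fewer cells of a type and less RNA per cell cannot be told apart.

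**Figure D3:**
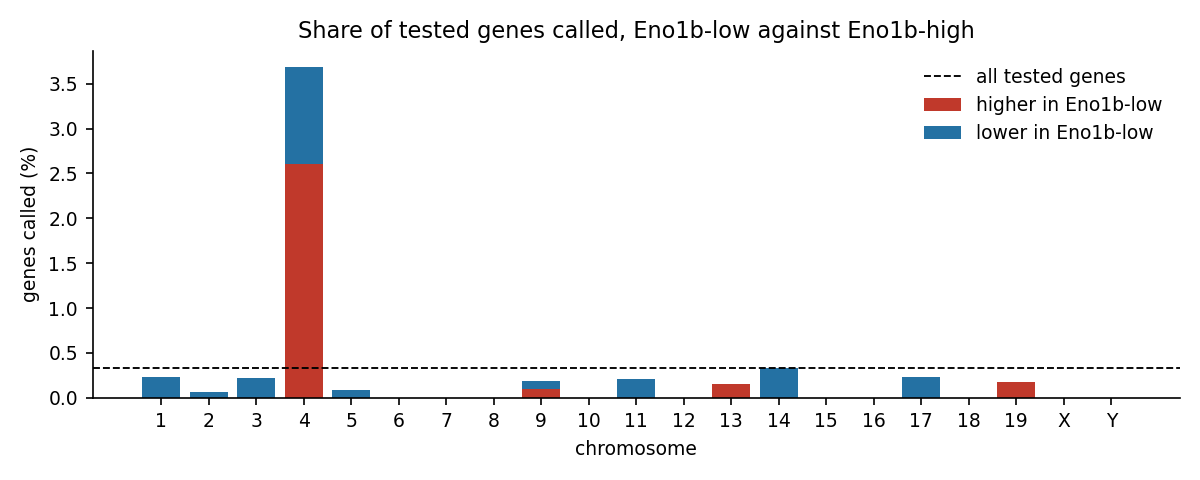
Percent of the tested genes of each chromosome that were called between Eno1b-low and Eno1b-high libraries (bars from 0, split by direction); the dashed line is the 0.329% called over all chromosomes. Chromosome 4 stands at 3.68%, and chromosome 18, which holds Eno1b, at 0.

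The called genes of chromosome 4 lie on both sides of Eno1, most of them before it, and chromosome 18, which holds Eno1b, had none. On chromosome 4 the share called was 3.68%, and 40 of the 41 calls lie between 122836242 and 156031643. In 10 Mb windows, 25 of 113 tested genes (22.1%) were called from 140000001 to 150000000, 7 of 112 (6.25%) in the next window towards the end of the chromosome, where Eno1 lies, and 6 of 177 (3.39%) in the window before. No window of another chromosome held more than 2 calls. In 5 Mb windows the highest share was 16 of 59 (27.1%) from 145000001 to 150000000. Within 10 Mb of the start of Eno1, 32 of 224 tested genes (14.3%) were called and 73 (32.6%) had an unadjusted p under 0.05. Within 10 Mb of Eno1b on chromosome 18, 0 of 78 tested genes were called and 2 (2.56%) had an unadjusted p under 0.05. On the whole of chromosome 18 the count was 0 of 497.

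The 20 tested genes nearest to Eno1b, 10 on each side, gave 0 calls, also by DESeq2 and limma-voom. Their log2 differences ran from -0.31 in Zfp474 to 0.12 in Lox, which encodes lysyl oxidase. The only unadjusted p under 0.05 among them by edgeR was 0.0446, in Commd10 (0.10 ± 0.05). The flanking genes Sema6a, a semaphorin, and Dtwd2 had -0.06 ± 0.09 and 0.09 ± 0.09. Of the 20 tested genes nearest to Eno1 on chromosome 4, 2 were called, Slc2a5 and Gpr157, while the next neighbour Rere was at -0.01 ± 0.06.

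**Figure D4:**
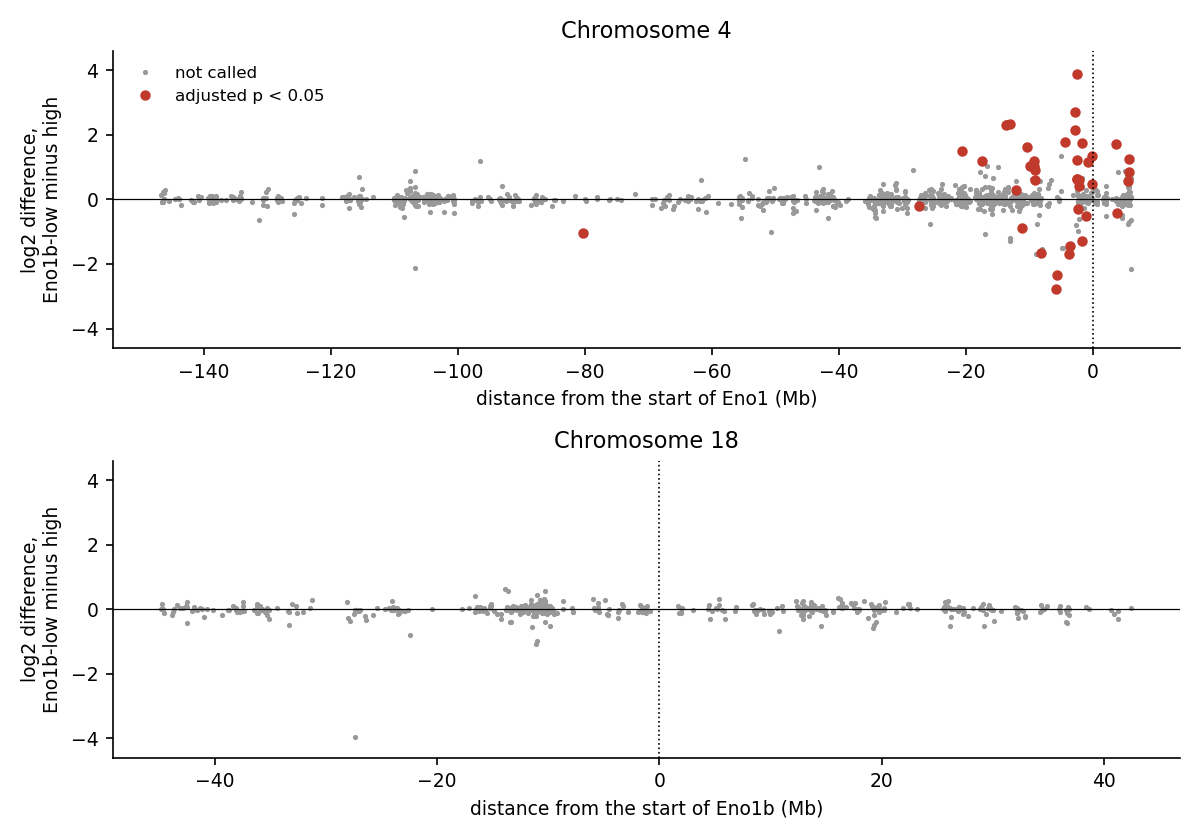
Log2 difference (Eno1b-low minus Eno1b-high) of every tested gene on chromosome 4, by distance in Mb from the start of Eno1, and on chromosome 18, by distance from the start of Eno1b; red points are called genes. On chromosome 4, 32 of the 41 calls lie within 10 Mb of Eno1, in both directions of change, and on chromosome 18 there is no call.

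Slc2a5, which encodes the fructose transporter GLUT5, was the gene whose classes did not overlap in either group (ENSMUSG00000028976, chromosome 4, 150119283 to 150144169, before Eno1 on the chromosome). In High Drinker animals it ran from 4.595 to 7.91 CPM (median 5.84) in the 31 Eno1b-low libraries. The 5 Eno1b-high libraries (9, 11, 18, 24 and 27) were at 3.02, 1.76, 3.34, 1.37 and 1.51 CPM. In Low Drinker animals the 3 Eno1b-low libraries (3, 9 and 20) were at 6.84, 6.56 and 4.72 CPM, and the 26 Eno1b-high libraries ran from 1.06 to 4.48 CPM (median 2.67). All Eno1b-low libraries thus lay above all Eno1b-high libraries, also over both groups together, which held for 1 of 17934 tested genes (0.00558%). The log2 difference was 1.33 ± 0.14 (SE, adjusted p = 5.98e-10, edgeR quasi-likelihood test with Benjamini-Hochberg adjustment). Intermediate libraries ran from 3.40 to 5.01 CPM, overlapping both classes.

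Several zinc finger genes close together on chromosome 4 differed, in opposite directions. Zinc finger proteins of this kind bind DNA, and such genes lie in clusters of similar copies. Zfp984 (ENSMUSG00000078495, 147753974 to 147809788) was at 0.47 to 4.33 CPM in High Drinker Eno1b-low libraries (median 1.93) and at 0.0311, 0.0451, 0, 1.04 and 0.0946 CPM in the High Drinker Eno1b-high ones (9, 11, 18, 24 and 27). In Low Drinker animals it was at 2.45, 0.883 and 2.24 CPM (3, 9 and 20) against 0 to 0.174 CPM. The classes overlapped in High Drinker animals through library 24 and did not overlap in Low Drinker animals. Its log2 difference was 3.88 ± 0.35 (adjusted p = 2.67e-12), and all 34 Eno1b-low libraries lay above the Eno1b-high median. In this and all later counts of libraries above or below it, that median is taken over both groups. Most Eno1b-low libraries are High Drinker and most Eno1b-high ones Low Drinker, so these counts mix class with group. Zfp982 (2.14 ± 0.28), Gm16503 (2.69 ± 0.37), Zfp933 (0.62 ± 0.10) and the pseudogene Znf41-ps (1.77 ± 0.36) were also higher, each above the Eno1b-high median in 34 of 34 libraries. Zfp992 (-1.69 ± 0.27, below the median in 34 of 34) and Zfp993 (-1.44 ± 0.31, below in 32 of 34) were lower. Zfp993 was no longer called without library High Drinker 11 (-1.31, adjusted p = 0.0797). All of these genes lie between 145825237 and 147848366. Zfp984 shares exon bases with Gm20707, also called, on the same strand, so their counts are uncertain.

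The other named higher genes of chromosome 4 code for proteins of unlike kinds. Padi2, which converts arginine residues of proteins to citrulline (140906344 to 140952586), had medians of 29.2 CPM in High Drinker Eno1b-low and 14.2 CPM in High Drinker Eno1b-high libraries, and 30.99 and 12.2 CPM in Low Drinker animals. The groups overlapped, and the log2 difference was 0.99 ± 0.18 (adjusted p = 0.000457, above the Eno1b-high median in 32 of 34). Agtrap, a partner of the angiotensin II type 1 receptor (148077061 to 148088031), had medians of 7.55 and 4.79 CPM over both groups and a difference of 0.61 ± 0.11 (adjusted p = 0.000283, 33 of 34). Fbxo44, the substrate-binding part of a ubiquitin ligase, had medians of 104.2 and 76.5 CPM and a difference of 0.41 ± 0.08 (adjusted p = 0.00118, 33 of 34).

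Crocc, the gene of rootletin, a structural protein at the base of cilia, ran from 33.4 to 323 CPM in Eno1b-low and from 30.0 to 139 CPM in Eno1b-high libraries. Its medians were 138.7 and 49.8 CPM, and its difference was 1.20 ± 0.25 (adjusted p = 0.00694, above the median in 31 of 34). Masp2, a serine protease of the lectin pathway of complement, was at 0.391 to 2.15 CPM against 0.119 to 0.521 CPM, a difference of 1.73 ± 0.26 (adjusted p = 2.56e-05, 34 of 34). Masp2 overlaps exon bases of Tardbp on the opposite strand, and the library kits named in the labels keep no strand. The remaining higher genes of the naming rule were Miip (0.63 ± 0.12), Hp1bp3, which encodes a heterochromatin-binding protein (0.29 ± 0.05), Arhgef19 (0.59 ± 0.12), Dcdc2b (1.49 ± 0.33) and the G protein-coupled receptor gene Gpr157 (0.49 ± 0.11). Each was above the Eno1b-high median in 31 or 32 of 34 Eno1b-low libraries. Without High Drinker 11 the calls of Dcdc2b (1.37, adjusted p = 0.0651) and Gpr157 (0.43, adjusted p = 0.112) were lost. Without Low Drinker 20 those of Dcdc2b (1.45, adjusted p = 0.103), Gpr157 (0.46, adjusted p = 0.115) and Arhgef19 (0.57, adjusted p = 0.0532) were lost, and without Low Drinker 3 that of Gpr157 (0.46, adjusted p = 0.0824).

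Fewer genes of chromosome 4 were lower in Eno1b-low libraries. Clcn6, a chloride and proton exchanger of late endosomes (148004259 to 148038821), was at 111 to 171 CPM (median 138.2) in High Drinker Eno1b-low and 128 to 180 CPM (median 170.3) in High Drinker Eno1b-high libraries. In Low Drinker animals it was at 133 to 154.5 CPM against 155.6 to 195.5 CPM, with no overlap. The log2 difference was small, at -0.29 ± 0.05 (adjusted p = 0.000186), with 34 of 34 libraries below the Eno1b-high median of both groups. Eno1b-low High Drinker 15, at 171.1 CPM, was above the median of the High Drinker Eno1b-high libraries alone. Cenps, a centromere protein gene, had -0.53 ± 0.09 (adjusted p = 0.000536, 33 of 34 below). Nbl1, which codes for a secreted BMP antagonist, had medians of 35.5 and 75.7 CPM and a difference of -0.90 ± 0.18 (adjusted p = 0.00353, below in 33 of 34 libraries). Angptl7, a secreted angiopoietin-like protein, had -1.28 ± 0.23 at levels under 1.1 CPM (adjusted p = 0.000457, 33 of 34). Ppt1, a lysosomal thioesterase gene (-0.21 ± 0.05), and Smim1 (-0.41 ± 0.10) had adjusted p-values of 0.0135 and 0.0233. When the 3 Low Drinker Eno1b-low and 5 High Drinker Eno1b-high libraries were left out in turn, Ppt1 lost its call in 3 cases and Smim1 in 6, with differences of -0.23 to -0.17 and -0.48 to -0.39 over the 8 cases.

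**Figure D5:**
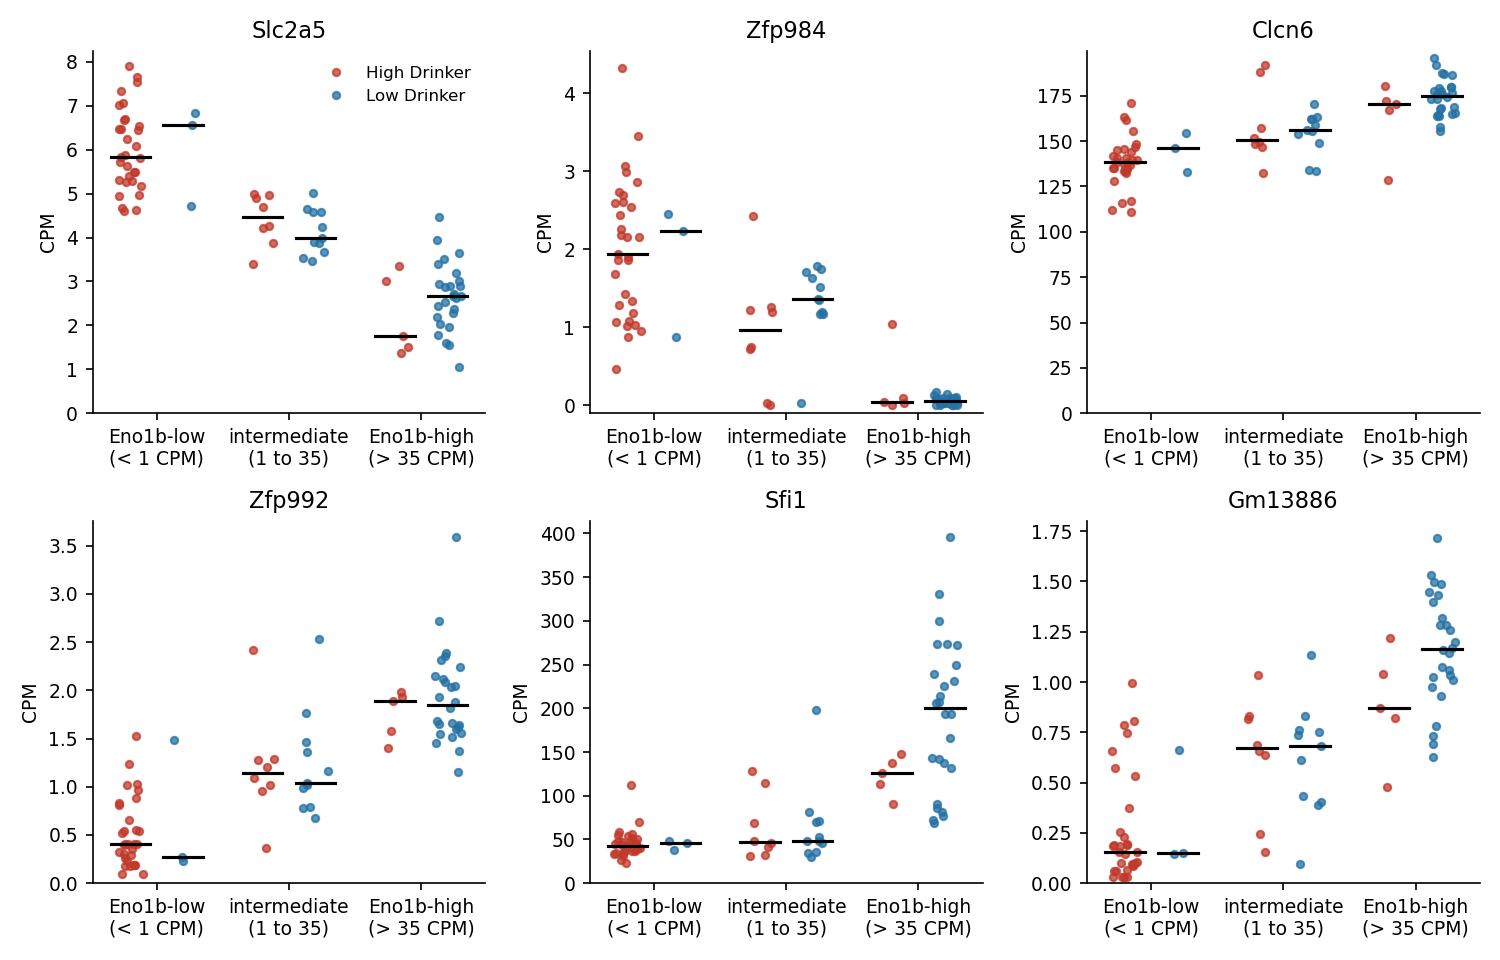
CPM of 6 genes in each of the 84 libraries, by Eno1b class and group (points are libraries, bars are medians, linear axes). Slc2a5 and Zfp984 are highest in Eno1b-low libraries, Clcn6, Zfp992, Sfi1 and Gm13886 are lowest there, and most intermediate libraries of Slc2a5 lie in the middle.

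Away from chromosome 4, 18 genes were called, of which 8 remained called without 1 library, while 30 of the 41 on chromosome 4 did. High Drinker 11 is an Eno1b-high library in which the ribosomal RNA locus Gm42418 reached 102171 CPM, against a median of 1327 CPM in the 5 High Drinker Eno1b-high libraries. Rn7sk, the 7SK RNA that holds back a transcription elongation factor, was at 158 CPM in it, at 2.21, 3.19, 1.04 and 0.41 CPM in the other High Drinker Eno1b-high libraries (9, 18, 24 and 27), and at 0.449 to 5.09 CPM in the Low Drinker ones. In Eno1b-low libraries it ran from 0.361 to 10.6 CPM. The log2 difference of Rn7sk was -3.15 ± 0.53 (adjusted p = 0.000141) with this library and -0.33 (adjusted p = 1.0) without it. The same held for Rpph1 (-2.43, and -0.38 without it), Gm25911 (-3.20, and -0.38), Gm42418 (-2.69, and -0.35), Gm22009 (-1.91, and 0.29) and Scarna2 (-3.52, and 0.005), each with an adjusted p of 1.0 without it. In all, 38 genes were called without High Drinker 11 (0.21%), every one among the 59, and 30 of them (78.9%) lie on chromosome 4. The 8 elsewhere were Sfi1, Gm11400, Gm2420, Gm5801, Gm13886, 4930481A15Rik, Wnt3a and Acaa1a.

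Sfi1, which encodes a centrin-binding protein of the centrosome, shared the smallest adjusted p outside chromosome 4 with Gm2420 (ENSMUSG00000023764, chromosome 11, 3131850 to 3193463). In High Drinker animals it ran from 22.8 to 112 CPM (median 42.4) in Eno1b-low libraries, and the 5 Eno1b-high libraries (9, 11, 18, 24 and 27) were at 126, 137, 114, 90.6 and 147 CPM. In Low Drinker animals it was at 48.4, 38.3 and 45.8 CPM (3, 9 and 20) against 69.2 to 396 CPM (median 200.1), with no overlap. The log2 difference was -1.74 ± 0.22 (adjusted p = 1.64e-07, below the Eno1b-high median in 34 of 34). Gm11400, a pseudogene within the Sfi1 locus (-1.61 ± 0.26), and Gm2420 on chromosome 5 (-3.19 ± 0.40) moved in the same direction. Gm2420 shares 26.3% of its 25-base words with Sfi1, so reads of these loci may not be independent. The medians of Sfi1 in intermediate libraries were 47.02 CPM (High Drinker) and 48.5 CPM (Low Drinker), beside 42.4 and 45.8 CPM in Eno1b-low libraries. These medians hide a spread. Intermediate High Drinker 1 and 2 were at 114.5 and 128 CPM and Low Drinker 4 at 197.8 CPM, within the Eno1b-high ranges. The other intermediate libraries ran from 30.4 to 81.4 CPM.

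Among the other calls outside chromosome 4, 2 share at least 20% of their 25-base words with a gene in the same end of chromosome 4. Gm13886, a pseudogene on chromosome 2 (104820179 to 104821361), had medians of 0.156 and 1.15 CPM and a difference of -1.83 ± 0.35 (adjusted p = 0.00139, 34 of 34 below), and 25.9% of its 25-base words occur in Tardbp on chromosome 4. Gm5801, a pseudogene on chromosome 14 (56010536 to 56011315), had a difference of -2.13 ± 0.39 (adjusted p = 0.000661, 34 of 34 below), and 80.2% of its words occur in Ube2j2 on chromosome 4. Smaller shares with genes of that end were found for Gm22009 (3.2%, with Fblim1) and Gm11400 (2.9%, with Gm13050). Gm22009 shared as much (3.2%) with Abcd4, Tnfrsf13c and Armc2 on other chromosomes. Gm11400 shared more (25.4%) with Eef2 on chromosome 10. The antisense gene 4930481A15Rik on chromosome 19 was higher, with medians of 1.60 and 0.0658 CPM and a difference of 3.40 ± 0.44 (adjusted p = 4.17e-07, 34 of 34 above). Wnt3a, a secreted signalling protein, had -1.86 ± 0.41 at levels under 0.79 CPM. Acaa1a, a peroxisomal thiolase, had 0.65 ± 0.15. In the same 8 leave-outs Wnt3a lost its call in 4 cases (differences of -2.07 to -1.61) and Acaa1a in 6 (0.59 to 0.75).

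Inside the High Drinker group, 31 Eno1b-low libraries were compared with 5 Eno1b-high ones, and 8 of 18775 tested genes were called (0.0426%), 4 higher (0.0213%) and 4 lower (0.0213%), with 1074 (5.72%) at an unadjusted p under 0.05. They were Slc2a5 (1.44 ± 0.16), Zfp984 (3.06 ± 0.57), Masp2 (2.11 ± 0.40), Zfp46 (0.40 ± 0.07) and Smim1 (-0.47 ± 0.08) on chromosome 4, with Sfi1 (-1.55 ± 0.15), Gm2420 (-3.51 ± 0.48) and Gm11400 (-1.39 ± 0.24) elsewhere. Of these, 7 were among the 59. Markers of medium spiny neurons were all on the positive side in this comparison. With a score of these markers as a further term 19 genes were called, all 8 among them. The part of these markers was not tested beyond this. On chromosome 4, 144 of 1165 tested genes (12.4%) had an unadjusted p under 0.05. Leaving out 1 Eno1b-high library, an alternative chosen after seeing the data, gave from 3 genes (without High Drinker 27) to 16 (without High Drinker 24). Without High Drinker 9 there were 5, and without High Drinker 11 there were 4.

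Inside the Low Drinker group, 3 Eno1b-low libraries were compared with 26 Eno1b-high ones, and 6 of 17899 tested genes were called (0.0335%), 5 higher (0.0279%) and 1 lower (0.00559%), with 409 (2.29%) at an unadjusted p under 0.05. They were Zfp984 (4.63 ± 0.46), Zfp982 (2.34 ± 0.37), Gm16503 (3.69 ± 0.54) and Padi2 (0.92 ± 0.17) on chromosome 4, 4930481A15Rik (4.48 ± 0.61) and Gm13886 (-1.92 ± 0.37). All 6 were among the 59. Markers of medium spiny neurons were all on the negative side here. With a score of these markers as a further term 7 genes were called, 5 of the 6 among them. The part of these markers was not tested beyond this. On chromosome 4, 5.67% of tested genes had an unadjusted p under 0.05, while on chromosome 1 the share was 4.75%. Without Low Drinker 20 only 1 gene was called, and without Low Drinker 9 there were 11.

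Zfp984 was the gene called in each group on its own. The difference between classes was also tested against group (the interaction), and 0 of 18135 genes passed by edgeR, DESeq2 or limma-voom, with 652 (3.6%) at an unadjusted p under 0.05 by edgeR. With 3 and 5 libraries in the smaller cells, a difference between groups in these effects may not be detectable. Of the 55 called genes fitted in both groups, all 55 had the same sign in each, against 42.9% of all genes fitted, which the joint call favours. The classes of 4 genes did not overlap in High Drinker (0.0223%) and those of 22 genes did not overlap in Low Drinker animals (0.123%), with Slc2a5 the gene common to both.

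The intermediate libraries were not used to call the 59 genes. For 51 of the 59 called genes their median lay between those of the other classes, which was so for 35.2% of all tested genes. The 59 genes were chosen for a large difference between those classes, which leaves more room for a median between them. The 2 shares are therefore not comparable. Against the Eno1b-high class 10 of 18076 genes were called (0.0553%), all among the 59. They were Zfp984, Zfp982, Gm16503, Zfp933, Masp2 and Slc2a5, 6 genes higher in the intermediate class (0.0332%), and Sfi1, Gm11400, Gm2420 and Angptl7, 4 genes lower in it (0.0221%). Zfp984 was 3.70 ± 0.35 higher, on the log2 scale, than in the Eno1b-high class (adjusted p = 1.10e-12) and differed from the Eno1b-low class by -0.69 ± 0.33 (adjusted p = 0.9999). Not every intermediate library was high in Zfp984. High Drinker 1 and 2 were at 0.0303 and 0 CPM and Low Drinker 4 at 0.0298 CPM, like most Eno1b-high libraries. The other intermediate libraries ran from 0.724 to 2.42 CPM. Slc2a5 was 0.77 ± 0.10 higher than in the Eno1b-high class (adjusted p = 2.27e-07). Against the Eno1b-low class 0 genes were called by edgeR, 2 by DESeq2 and 5 by limma-voom, with 414 (2.29%) at an unadjusted p under 0.05 by edgeR. Each contrast uses the same intermediate libraries, and the Eno1b-high and Eno1b-low libraries are those by which the 59 genes were called. The overlap with the 59 is therefore not independent of that call.

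Within the intermediate class the level of Eno1b and those of the called genes were set side by side over the 19 libraries, as a description with no test. Spearman's rank correlation was highest for Fbxo44 (0.65), Nbl1 (0.40) and Gm13003 (0.39) and lowest for Gm13886 (-0.62) and Zscan26 (-0.53). A positive log2 difference (Eno1b-low minus Eno1b-high) means a lower level where Eno1b is high, as a negative correlation does. In this sense Fbxo44, Gm13003 and Gm13886 ran opposite to the class comparison (log2 differences of 0.41, 2.34 and -1.83). Nbl1 and Zscan26 ran the same way as in it (-0.90 and 0.23). The 19 libraries differ in depth and sex, and 18 of them span a narrow range of Eno1b.

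With class as a term, few genes were called between High and Low Drinker animals in these 65 libraries. By edgeR 2 of 17934 genes were called between the groups (0.0112%), Rn7sk (3.48 ± 0.57) and Scarna2 (3.599 ± 0.71), both highest in High Drinker 11 among the Eno1b-high High Drinker libraries, and 516 (2.88%) had an unadjusted p under 0.05. DESeq2 called 11 genes, limma-voom 0, and edgeR with no sheet set term 14. Without class in the model 217 genes were called (1.21%), 86 of them on chromosome 4. Of these 217, 46 were among the 59 called between classes, 37 of them on chromosome 4. Adding class lowered the median absolute log2 difference of the 217 from 0.45 to 0.18 and raised their median SE from 0.10 to 0.15, and 210 kept their sign. The 217 were chosen by their difference without class, which favours a smaller difference in another fit. The comparisons of groups and of classes use the same libraries. In these, 31 of 34 Eno1b-low libraries are High Drinker and 26 of 31 Eno1b-high libraries are Low Drinker.

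The cell type markers and other lists gave no call. In 15 lists, 0 tested members were past the threshold, where 0.329% of all tested genes were. The 20 medium spiny neuron markers, which mark the main cell type of the striatum, had a median log2 difference of 0.21 with 18 positive signs over both groups, but their direction was opposite in each. All 20 were positive in High Drinker (median 0.50, for example Rgs9 0.71) and all 20 negative in Low Drinker animals (median -0.65, for example Adora2a -0.88). The 10 cortical glutamatergic neuron markers ran the other way, all negative in High Drinker (median -0.25) and all positive in Low Drinker animals (median 0.44). For both lists 0 members had an unadjusted p under 0.05 in either group or for the interaction by edgeR. The summed medium spiny neuron level overlapped widely, at 1735 to 20620 CPM (median 8092) against 2192 to 11340 CPM (median 6873) in High Drinker animals. In Low Drinker animals it was 2236 to 12910 CPM (median 8072) against 1383 to 15430 CPM (median 6509), so there the raw medians and the fitted differences, which take sheet set and sex into account, differ in sign. With a score of these markers as a further term 77 genes were called, all 59 among them. Immediate early genes had a median of -0.23 with 0 of 15 positive signs (0 of 15 in High Drinker, 4 of 15 in Low Drinker animals), and ependymal and choroid plexus markers had -0.28. The lowest adjusted p of any list was 0.0571, in the choroid plexus gene Ttr (log2 difference -3.96). The medians of the other lists ran from -0.24 for blood (5 genes) to 0.07 for endothelial and mural cells (12 genes). Their part in the differences above was not tested.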

How the data were processed

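The authors deposited raw counts per gene, 1 column per animal. STAR, featureCounts (Subread), FastQC and edgeR, with build mm10, are the tools in the submitters' processing notes. Versions, strand handling and the treatment of reads with several matches: not given in the sources used here. Per the labels' protocols, amplified cDNA was made with an Ovation kit before library preparation, and no molecular identifiers are named. The table holds 43629 genes, and 0 rows name no gene (a share of 0%). CPM values use the library total. All 37 mitochondrial genes have a count of 0.

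Classes were compared by the quasi-likelihood test of edgeR 4.0.16 under R 4.3.3 (filterByExpr, then TMM, terms for sheet set, sex, group and class) with Benjamini-Hochberg adjustment over all tested genes at a threshold of 0.05. Alternatives used DESeq2 1.42.0, limma 3.58.1 (voom) and sva 3.50.0. Sequences and shared 25-base words came from the GENCODE transcripts of GRCm38. Python 3.11.15, pandas 2.3.3 and matplotlib 3.10.9 made the summaries and plots. The fits were tested on simulated data with known changes.

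The libraries and gene lists were chosen with earlier results of these data known. Genes named are the enolases, the 12 higher and 12 lower genes with the smallest adjusted p (mean of at least 1 CPM, an established symbol, the same sign in each group; fewer lower genes met this), genes called in each group, 10 neighbours on each side of Eno1b, and the genes most and least correlated with Eno1b in intermediate libraries. Other called genes named were chosen after their values were seen. Of the 59 called genes, 5 share exon bases with a neighbour on their own strand and 14 with one on the opposite strand.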

Additional observations from a re-analysis of the deposited data

Results flagged for a closer look

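In the 2 smaller High Drinker classes, a library far from the rest of its class was looked for in 47 genes (94 groups of libraries), and 22 were found. The genes were mostly those called between the classes, some of them only with High Drinker 11, and included Eno1b itself. The count therefore cannot be set against a chance rate. The groups reuse the same libraries and are not independent, and 9 of the 22 come from High Drinker 11. In the Eno1b-high class, High Drinker 11 was the highest in Rn7sk (158.4 CPM), Gm25911 (50.25 CPM), Rpph1 (18.1 CPM), Gm42418 (102171 CPM), Gm22009 (11.3 CPM), Scarna2 (9.51 CPM) and Acaa1a (40.2 CPM), and the lowest in Hp1bp3 (162.8 CPM) and Clcn6 (128.3 CPM). In the same class, High Drinker 24 was the highest in Zfp984 (1.04 CPM), Dcdc2b (3.96 CPM), 4930481A15Rik (0.744 CPM) and Zfp982 (0.744 CPM), genes that were higher in Eno1b-low libraries. In the intermediate class, High Drinker 7 was the lowest in Eno1b (9.83 CPM) and Gm4735 (3.21 CPM). High Drinker 29 was the highest in Dcdc2b (8.94 CPM), 4930481A15Rik (2.02 CPM) and Masp2 (1.10 CPM), and High Drinker 2 in Zfp992 (2.42 CPM) and Gm28187 (0.345 CPM). Cd244a was highest in High Drinker 22 (0.339 CPM) and Scarna2 in High Drinker 19 (0.267 CPM).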

How the results depend on the processing

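The 59 genes called between classes became 38 at an adjusted p of 0.01, 5 in females, 16 in males, 178 with 5 surrogate variables, and 39 with classes below 5 and above 25 CPM as with classes below 1 and above 20 CPM. Leaving out 1 library gave 37 to 64, with 37 without Low Drinker 20 and 38 without High Drinker 11. The share of calls on chromosome 4 was 80.0% in females, 81.2% in males, 46.6% with surrogate variables, 80.0% with log2 Eno1b over all 84 libraries as the term, and 63.0 to 78.9% leaving out 1 library. Sheet set 1 alone gave 52 calls, 40 of them among the 59. In High Drinker animals the 8 calls became 5 (adjusted p of 0.01), 29 (DESeq2), 20 (limma-voom), 2 (females), 4 (males), 19 (medium spiny neuron score), 3 and 1 (the limits of 5 and 25, and of 1 and 20 CPM) and 4 (above 45 CPM), and 3 to 16 leaving out 1 library. In Low Drinker animals the 6 calls became 30 (DESeq2), 17 (limma-voom), 0 (females), 11 (without the 3 of its libraries that stood apart), 1 and 0 (the same limits), and 1 to 11 leaving out 1 library. Between intermediate and Eno1b-low libraries, DESeq2 gave 2, limma-voom 5, and no sheet set term or leaving out the 5 libraries that stood apart 1. Between groups with class as a term, calls were 1 at an adjusted p of 0.01, without a filter, without sheet set 3 and without the 4 of these that it used, 11 (DESeq2), 0 (limma-voom), 14 (no sheet set term) and 217 (no class term). Windows with 3 or more calls were 3 at 10 Mb and 5 at 5 Mb.

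Among called genes followed, the sign changed in small RNAs and Gm42418. In males Rn7sk was 0.187, Gm25911 1.15, Rpph1 0.0998, Gm42418 0.751, Gm22009 0.167 and Scarna2 0.467. Above 45 CPM Gm25911 was 0.144, Gm42418 0.169, Gm22009 0.707 and Scarna2 0.248. Gm22009 was 0.0683 by limma-voom, and without High Drinker 11 it was 0.291 and Scarna2 0.00477 (leaving out 1 library, from -2.17 and from -3.84). Of 41 called genes followed, Slc2a5, Zfp984 and Masp2 were called under each of the 27 alternatives. Causes were not tested. No paired analysis was possible because the labels give the animals no shared replicate numbers. Sheet set 2 alone and Low Drinker males alone could not be fitted. The 3 Low Drinker Eno1b-low and 5 High Drinker Eno1b-high libraries limit what the depth could otherwise show.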
